A study of Mus musculus with 6 samples.

Results

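The wild-type methylation signal of mouse colonic mucosa was described over 101586 autosomal probe positions, of 103507 genomic probe positions on the methylation array. Members were all non-control probes whose stated position lies on chromosomes 1 to 19, and the values are those of the wild-type (Cy3) channel on both methylation arrays. The remaining 1921 positions lie on chromosome X, and 1036 negative control spots gave the level of a probe without a target.

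Both samples came from wild-type C57BL/6 mice at 90 postnatal days, and are called here by their label codes, 90f and 90n. The mucosa was scraped from the colon and frozen, and its DNA was digested, amplified and hybridised. Each array also carried DNA of a Tlr2 knockout mouse of the same strain and age in the other channel, which was not used. The study's text calls the comparisons independent. Whether 1 code stands for 1 mouse is not stated, so the spread between the 2 samples may be technical in part.

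DNA methylation in mammals is the addition of a methyl group to cytosine, mostly where cytosine precedes guanine, and most such sites outside CpG islands are methylated in adult tissue. In methylation-specific amplification, SmaI first cuts its unmethylated sites and leaves blunt ends, and XmaI then cuts the same sites where they stayed methylated and leaves ends that accept an adaptor. An interval is amplified when both of its ends were methylated. In principle a strong signal then marks a methylated pair of sites. A signal at background marks an interval that was not recovered, provided that the probe lies in an interval of the amplified size. The signal is an average over all cells of the scraped mucosa, and a difference in cell makeup cannot be told apart from a difference within a cell type. The brightness of a probe also depends on its own sequence and on how well its interval amplifies, so the differences between classes of probes given here are differences in signal, and the part of methylation in them was not tested.

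The tissue label was checked in the wild-type channel of the expression arrays of the same sample codes. All 13 measured markers of colonic epithelium, of 14 listed, were well above background in both samples, and 9 of them in 90f and 4 in 90n were saturated. Markers of other cell types were detected too, with 6 and 5 of 6 leukocyte genes, 3 of 3 fibroblast genes, 3 of 3 smooth muscle genes and 3 of 3 adipocyte genes. The 4 measured genes of other organs were also well above background, so this flag does not separate the tissues. Levels of different probes were not set against each other. The tissue is therefore taken from the label, and detection of the epithelial genes does not establish it.

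Most of the autosomal array gave signal far above background in both samples. In 90f 91.3% of the probes were well above background by the scanner's own flag, and in 90n 93.3%, against 1.35% and 0.676% of the negative control spots. The same 92310 probes (90.9%) passed in both samples, 6361 passed in neither, 484 passed in 90f only and 2431 in 90n only. No probe was saturated. The median processed signal was 10307 in 90f and 2798 in 90n. Before the scanner software's linear dye factor, 2.42 and 0.527, the order was the other way round, at 4248 and 5289. Levels are therefore given from here on as log2 signal minus the autosomal median of the same array.

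The signal had 1 broad upper mode and a long lower tail that ended at the negative controls. The negative controls had their median at -10.69 in 90f and -11.02 in 90n, which put the array median 10.86 ± 0.24 (SD, n = 2) log2 units above them. These controls are at background, so this distance depends on how background was treated, and it was 6.42 without background subtraction and 6.06 with limma's normexp correction. Within 1 unit of the median lay 37.7% of the probes of 90f and 41.4% of those of 90n. Above 1 lay 26.1% and 23.8%, and the brightest probes reached 3.14 and 3.09. Below -4 lay 18.2% and 15.7%, a class that runs down to the negative controls. The signal thus spread over a wide range below its median and a narrow one above it. Chromosome X stood lower than the autosomes in both samples, with medians of -1.57 and -1.60 and 79.1% and 81.7% of its probes well above background.

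**Figure D1:**
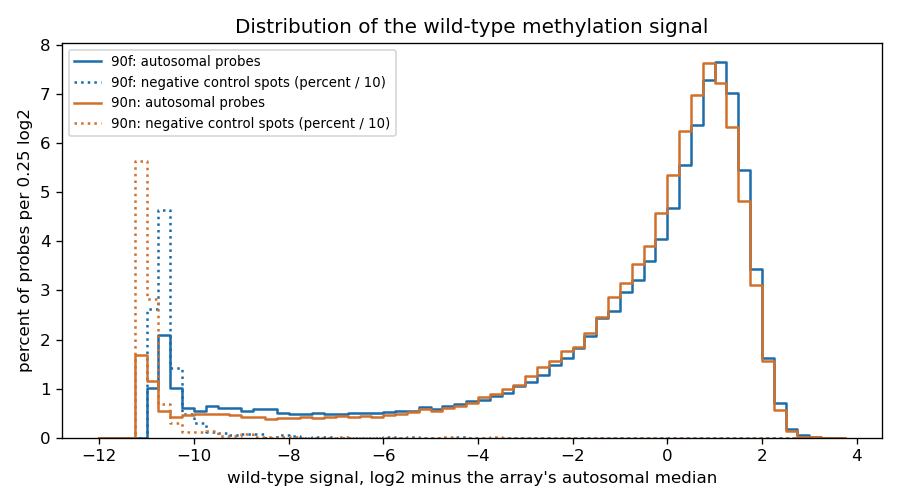
Share of autosomal probes (solid lines) and of negative control spots (dotted lines, divided by 10 to share the axis) per 0.25 log2 step of wild-type signal, each array set to its own autosomal median. Both samples have their mode near 1, and a small second rise lies at the negative controls, whose medians are -10.69 in 90f and -11.02 in 90n.

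The 2 wild-type samples ordered the probes alike, and they differed most where the signal was low. Over all 101586 probes Pearson's r was 0.967 and Spearman's rho 0.938, a description of probes that share an array design. The difference 90f minus 90n had an SD of 0.885. That SD was 0.459 for the 24934 probes with a mean level from 1 to 4, 0.967 for those from -4 to -1 and 1.46 for those from -8 to -4. In the last class the median difference was -0.89, so 90n was the brighter sample there, and 26.4% of the probes differed by over 2. Among the brightest class 0.0682% did. Between -12 and -8, close to the negative controls, the median difference was 0.21 the other way, and values there have no reliable order.

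**Figure D2:**
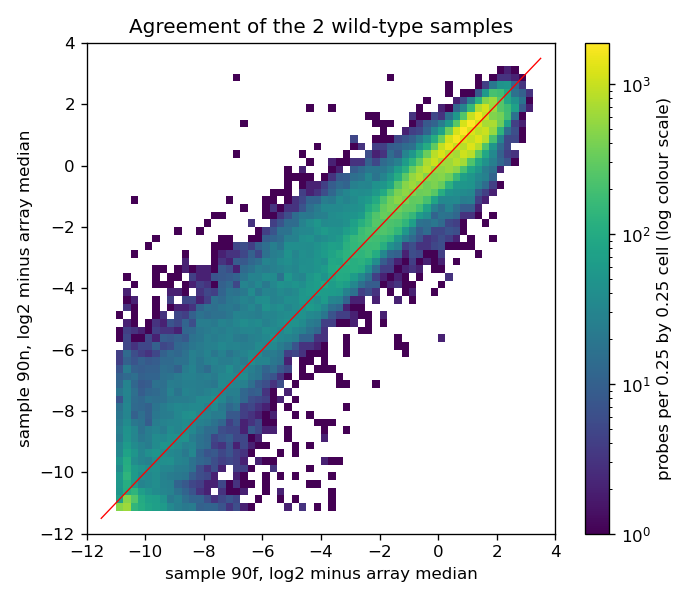
Each cell counts autosomal probes by their signal in sample 90f (x axis) and sample 90n (y axis), both as log2 minus the array median, with colour on a log scale and the line of equal values in red. The probes lie close to the line at the top and spread to the upper left at mean levels from -8 to -4, where the median difference 90f minus 90n was -0.89.

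The spread between the samples exceeded that of repeat measurements on 1 array. At 5574 positions the array holds a pair of probes, and these differed with a technical SD of 0.176 in 90f and 0.113 in 90n. At the same positions the SD between the samples was 0.619. The difference 90f minus 90n of one probe correlated with that of its partner at r = 0.943. Of 136 pairs whose first probe differed between the samples by over 2, the second differed by over 1 the same way in 130. These pairs share a target and an array, so they show that the reading repeats, and not whether the samples differ in methylation or in digestion and amplification.

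Longer probes had lower signal in both samples. Probes are 45 to 60 bases long. The 26786 probes of 45 bases had a median of 0.97 in 90f and 0.62 in 90n. Those of 46 to 52 bases had 0.53 and 0.51, and those of 53 to 59 bases -0.20 and -0.05. The 33623 probes of 60 bases had -2.04 and -1.66. The quartiles of the 60-base probes ran from -7.95 to -0.08 in 90f and from -6.83 to 0.16 in 90n, so this class held both dark and bright probes. The samples also differed along this property. The 45-base probes were brighter in 90f by a median of 0.36, and the 60-base probes were brighter in 90n by 0.28 (a median difference of -0.28 as 90f minus 90n).

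The order by length was also present inside single intervals, whose probes read neighbouring DNA. Of 4210 joined intervals that hold both 45-base and 60-base probes, the 60-base probes were lower in 74.1% in 90f and 71.8% in 90n. The median within-interval difference was -0.58 and -0.50. Across all probes the corresponding gap in medians was several-fold wider, as the values above show. In 1664 intervals of 4 probes the within-interval difference was -0.37 and -0.33. Probe length was set by the array design, and whether base composition moves with it could not be read from the files.

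Signal also rose with the number of probes in an interval. The true SmaI intervals are not listed for the whole array, so probes whose starts lie up to 500 bp apart were joined, which gave 34274 intervals. The series' text counts 33404 SmaI intervals of 100 bp to 2.2 kb on the array. Single probes made up 13265 of the joined intervals and 8537 held 4 probes, the most frequent number above 1. Single probes had a median of -7.90 in 90f and -6.90 in 90n, or -7.40 ± 0.71 (SD, n = 2), and only 53.1% and 61.2% of them were well above background. Intervals of 2 to 3 probes stood at -1.05 ± 0.16, those of 4 at 0.45 ± 0.04, those of 5 to 8 at 0.56 ± 0.09 and those of 9 or more at 0.69 ± 0.20. The step from single probes to intervals of 2 to 3 was larger than the spread between the samples, while the classes of 5 to 8 and of 9 or more overlapped between the samples. Probes also became shorter, from a mean of 57.7 bases in single probes to 49.8 in intervals of 9 or more. Among 45-base probes, intervals of 4, 5 to 8 and 9 or more had medians of 0.97, 1.06 and 1.12 in 90f. In 90n these were 0.74, 0.72 and 0.72. Among 60-base probes the medians were -0.44, -0.36 and -0.17 in 90f but -0.13, -0.20 and -0.27 in 90n. At these lengths the rise beyond 4 probes was thus not shared by both samples.

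Single probes were not uniform. The 5160 that lay over 500 and up to 1000 bp from another probe had medians of -1.98 and -1.68, and 93.0% and 95.8% of them were well above background. The 4757 that lay over 2000 and up to 20000 bp away had -9.78 and -9.52, with 25.4% and 38.1% well above background. The 906 that lay over 100000 bp away had -10.09 and -10.12, within 1 log2 unit of the negative controls. The isolated probes were also long, with a mean of 58.9 bases over 100000 bp and 55.8 bases at up to 1000 bp. Within the single probes of 60 bases the median was -9.23 in 90f and -8.80 in 90n, and within those of 45 bases -0.42 and -0.56. No file says whether the isolated probes lie inside SmaI intervals of the amplified size.

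Among intervals of exactly 4 probes, the stretch they span moved with the signal. The shortest quintile, spanning 101 to 301 bp between the outer probe ends, had a median interval mean of 1.03 in 90f and 0.92 in 90n. The quintile from 302 to 477 bp was much the same, at 1.03 and 0.98, so the fall lay at longer spans. The quintile from 478 to 670 bp had 0.62 and 0.69, and the longest, from 911 to 1518 bp, had -0.90 and -0.80. Mean probe length rose alongside, from 50.4 bases in the shortest quintile to 55.5 in the longest, and its part in this trend was not tested. By the order of a probe within the 4, medians ran only from 0.40 to 0.43 in 90f and from 0.46 to 0.49 in 90n, with outer and inner probes alike.

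Signal rose with the number of array probes within 50 kb on either side, most steeply at the sparse end. The sparsest quintile, with 1 to 7 probes in the window, had a median of -0.98 in 90f and -0.81 in 90n. The next quintiles stood at -0.07 and -0.03, at 0.08 and 0.04 and at 0.27 and 0.24. The densest, with 30 to 100 probes, stood at 0.38 and 0.32. The densest minus the sparsest quintile came to 1.25 ± 0.16 (SD, n = 2), and to 0.47 when only probes well above background in both samples were kept. The share well above background ran from 79.0% to 97.5% in 90f and from 82.7% to 98.3% in 90n. Probes also became shorter, from a mean of 55.1 bases in the sparsest quintile to 50.7 in the densest. Between these quintiles, medians of probes of 46 to 52 bases went from 0.51 to 0.50 in 90f and from 0.45 to 0.51 in 90n. Those of 53 to 59 bases went from -0.33 to -0.22 and from -0.13 to -0.10. These contrasts are descriptions: no model was fitted to them, and with 2 arrays an exact sign permutation cannot go below p = 0.5.

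The density contrast was widest among single probes. Within 4-probe intervals the densest minus the sparsest quintile was 0.33 ± 0.01, and within 45-base probes it was 0.16 ± 0.16. Within single probes it was 6.63 ± 0.06. Their mean length fell alongside, from 58.6 bases in the sparsest quintile to 55.4 in the densest. Their level also moved with the distance to the nearest probe, as given above, and the parts of length and distance were not tested. Within 60-base probes the density contrast was 3.40 ± 0.95 over all intervals but 0.41 ± 0.11 in 4-probe intervals. Within the 45-base probes of 4-probe intervals it was -0.001 in 90f and 0.256 in 90n, or 0.13 ± 0.18. The contrast in 4-probe intervals was thus not the same at every probe length. Mean length in these intervals fell from 54.4 bases in the sparsest quintile to 50.9 in the densest. Intervals of 2 to 3 probes showed no rise with density. Their medians were -0.79 in the sparsest quintile and -1.23 in the densest in 90f, and -0.61 and -0.97 in 90n. Over all intervals, the contrast among 45-base probes was about as large as the SD between the samples.

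**Figure D3:**
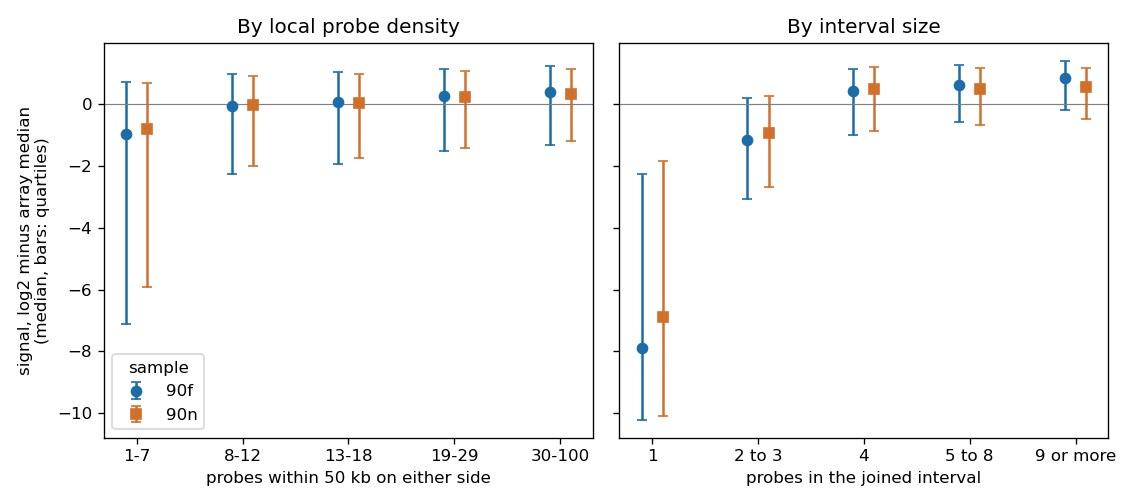
Median wild-type signal (points) with quartiles (bars) by the number of array probes within 50 kb on either side (left) and by the number of probes in the joined interval (right), for samples 90f and 90n. The wide lower quartile of the sparsest quintile and the single probes, with medians of -7.90 and -6.90, set those classes apart from the rest.

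Probes of one interval read alike, and the likeness ended within a few kilobases. Neighbouring probes 1 to 100 bp apart had Pearson's r of 0.892 in 90f and 0.882 in 90n, over 15079 pairs, and those over 200 and up to 500 bp apart 0.835 and 0.807. Over 500 and up to 2000 bp it was 0.599 and 0.536, then 0.294 and 0.279 up to 10000 bp, and 0.0652 and 0.0752 up to 100000 bp. These are descriptions over pairs that share an array and, at short range, a target. Between whole intervals of 3 or more probes, neighbours up to 2000 bp apart had r of 0.113 in 90f and 0.108 in 90n, over 1393 pairs. Between all intervals the same distance gave 0.510 and 0.459, over 9169 pairs, so the low values hold for the intervals of 3 or more probes. Values between intervals and between single probe pairs differ in unit, distance and probe set. Whether likeness is weaker between intervals than inside them at matched distance was therefore not tested.

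**Figure D4:**
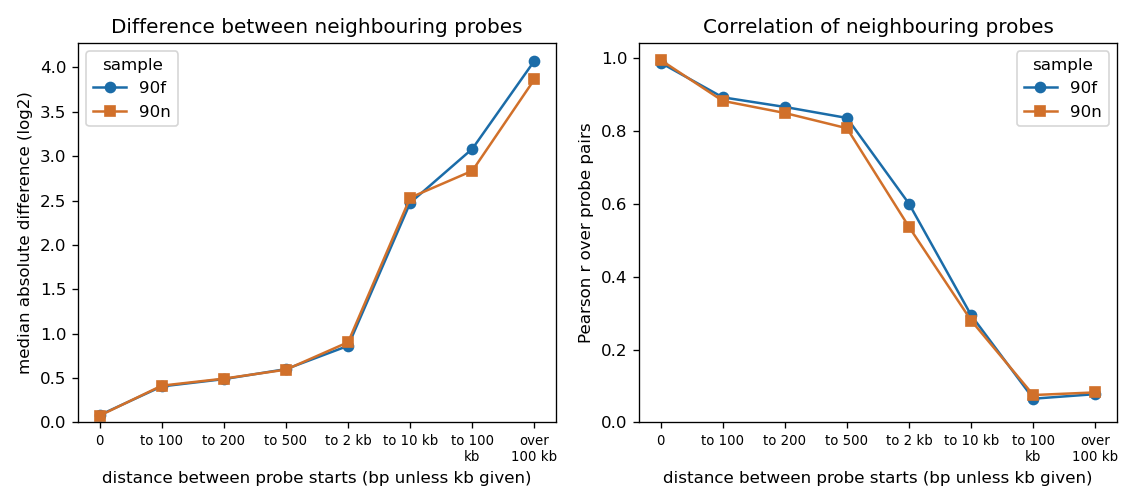
Median absolute difference in log2 signal (left) and Pearson's r (right) between neighbouring autosomal probes by the distance between their starts, in samples 90f and 90n. Up to 500 bp the difference stays near 0.6 or lower and r above 0.8, and beyond 10 kb r is below 0.1.

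In 16031 intervals of 3 or more probes, 78.0% of the variance of probe signals in 90f and 75.9% in 90n lay between intervals. The pooled SD within an interval was 1.35 and 1.30, and the SD of interval means 2.49 and 2.26. A small group held probes on both sides, with at least 1 probe below -4 and another above 0. They numbered 771 (4.81%) in 90f and 683 (4.26%) in 90n, and 581 were the same intervals, 75.4% and 85.1% of each set. In these shared intervals the 1199 dark probes had a mean length of 55.0 bases and the 2214 bright ones 49.8 bases. A joined interval can also hold probes of more than 1 SmaI interval. Of 304 of the authors' intervals that fell in 1 joined interval, 146 shared it with further probes outside. Whether the mixed intervals are of this kind was not tested.

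Bright and dark intervals were counted by their means in the set of intervals given above, which leaves out single probes. The cutoffs of 1 and -4 lie at unequal distances from the array median, so the counts do not say which kind was more frequent. In both samples 2599 intervals (16.2%) exceeded 1 and 1267 (7.90%) fell below -4, and in 14874 (92.8%) every probe was well above background in both. Interval means correlated between the samples at r = 0.962. They differed by over 1 in 1573 intervals (9.81%), of which 366 were brighter in 90f and 1207 in 90n. Taking out the median difference of each probe length left 1325, with 294 brighter in 90f and 1031 in 90n, so the balance towards 90n was present on that scale too.

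The brightest interval, in mm9 coordinates, was chr17:39981533-39982341, whose 4 probes averaged 2.48 in 90f and 2.36 in 90n. It was followed by chr3:82891855-82892366 at 2.37 and 2.46, chr1:192199582-192199764 at 2.19 and 2.50 and chr17:45775648-45776002 at 2.29 and 2.37. The next, chr1:172994381-172994982, had 2.56 and 2.01, a gap wider than the differences among the 5, so their order is not fixed. All had 4 probes, each well above background in both samples. No annotation of this build was used, so their genes are not given here, and whether their probes match 1 place in the genome or a repeated sequence was not checked. Their brightness is therefore given as signal only.

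At the other end, 55 intervals of 3 or more probes had no probe above background in either sample, with a mean probe length of 59.8 bases. The 5 with the lowest means all consisted of 60-base probes and lay at the negative controls, where values have no order. They were chr12:85220405-85220584, chr3:99368878-99369446, chr11:115702053-115702180, chr12:61735065-61735206 and chr11:28695659-28695868.

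The 5 intervals that differed most between the samples were all brighter in 90n. Interval chr3:68662477-68663081 averaged -7.28 in 90f and -2.60 in 90n over 3 probes, and chr1:38735666-38736218 averaged -9.03 and -4.39, with 2 of its 3 probes above background in 90f. Interval chr15:85133494-85134035 averaged -5.79 and -1.51, and chr15:25401193-25402038 averaged -5.16 and -0.99. The other, on chromosome 18, averaged -6.88 and -2.59. In each of these intervals the highest probe of 90f was below the lowest probe of 90n. They were chosen for this difference, so it has no test, and all had means below the median where the samples differed most in general.

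Chromosomes differed in mean signal by much more than the 2 samples did. The mean of all autosomal probes itself stood below the array median, at -1.36 in 90f and -1.23 in 90n. A lower call against that median was thus favoured before any test. Set against it, as designed, all 19 autosomes had a lower mean in limma's moderated test (19 of 19 tested, 100% called). Set against the autosomal mean, a choice made after this was seen, 17 of 19 departed from it (89.5% called), 8 higher (42.1%) and 9 lower (47.4%). The chromosomes with the highest means were 11, 7 and 8, and those with the lowest 3, 13 and 18. Chromosome 11 stood 0.45 above the autosomal mean in 90f and 0.42 in 90n, a fitted 0.43 ± 0.01 (SE; limma, Benjamini-Hochberg adjusted p = 5.9e-17). The fit gave all 19 chromosomes 1 pooled SE of 0.0138 in place of their own spread, whose SD ran from 0.00159 on chromosome 8 to 0.0465 on chromosome 19. The very small p-values rest on that pooling. Chromosome 7 stood at 0.33 and 0.29, and chromosome 8 at 0.17 and 0.18. Chromosome 3 stood at -0.52 and -0.50, a fitted -0.51 ± 0.01 (SE; limma, adjusted p = 6.8e-18). Chromosome 13 stood at -0.41 and -0.45, and chromosome 18 at -0.35 and -0.34. The order at the low end depends on the use of means. By medians, averaged over the samples and set against the array median, chromosomes 18, 13 and 16 stood lowest at -0.28, -0.26 and -0.25, with chromosome 3 next at -0.24. Chromosomes 11, 7 and 8 stayed highest, at 0.23, 0.18 and 0.08. Chromosome 12 turned from lower by means (-0.07) to higher by medians (0.04), called both ways in limma (adjusted p of 0.00011 and 0.043). Chromosomes 5 and 9 were not called by means, at 0.01 and -0.01 (adjusted p of 0.52 and 0.39 in limma).

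The chromosome means moved with the makeup of their probes. Over the 19 chromosomes the mean correlated with probes per Mb at r = 0.876 and with the percentage of 60-base probes at r = -0.978, descriptions over points that share both arrays. Chromosome 11 had 74.5 probes per Mb and 26.5% of 60-base probes, and chromosome 3 had 25.8 and 42.8%. When each probe was set against the mean of its class of interval size and probe length, the range shrank from between -0.51 and 0.43 to between -0.23 and 0.15. On that scale 15 of 19 chromosomes were still called (78.9%), 6 higher (31.6%) and 9 lower (47.4%). The means on that scale still correlated with the percentage of 60-base probes at r = -0.775 and with probes per Mb at r = 0.640. The link with probe makeup thus remained there, and its part in the calls was not tested. Chromosome 7 was then highest, at 0.16 in 90f and 0.14 in 90n, followed by chromosome 11 at 0.13 and 0.14 and chromosome 8 at 0.10 and 0.12. Chromosome 3 remained lowest, at -0.21 and -0.24. Chromosome 13 stood at -0.06 and -0.15 there, the widest gap between the samples on that scale (SD 0.069, n = 2). Chromosome 19 turned from higher (0.06) to lower (-0.04) within classes, called both ways in limma (adjusted p of 0.00024 and 0.035). Chromosomes 4, 12, 16 and 17, called against the autosomal mean, were not called within classes. Chromosomes 5 and 9, not called before, were called within classes at -0.05 and 0.06 (adjusted p of 0.0078 and 0.0029 in limma).

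**Figure D5:**
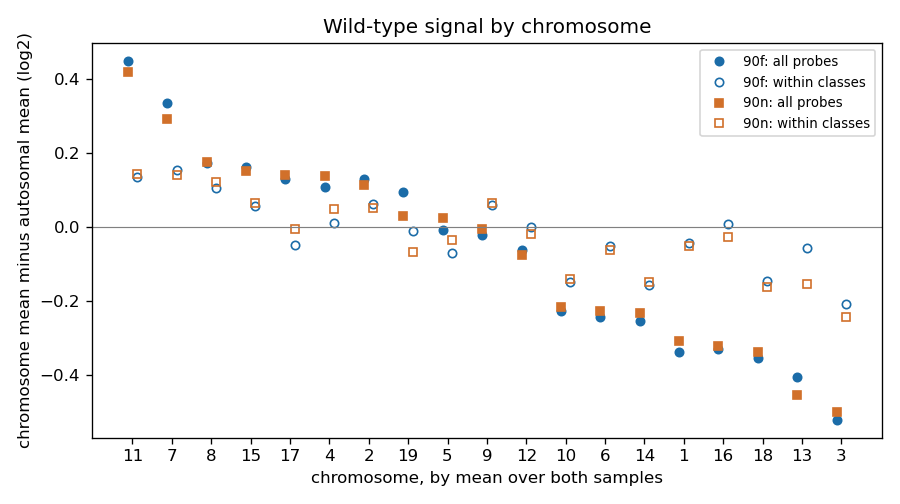
Mean wild-type signal of each autosome minus the autosomal mean in samples 90f (circles) and 90n (squares), for all probes (filled) and after setting each probe against its class of interval size and probe length (open). Averaged over the samples, the filled points run from 0.43 on chromosome 11 to -0.51 on chromosome 3 and the open ones over a narrower range, from 0.15 to -0.23.

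On a finer scale, 1705 of the 2285 windows of 1 Mb that hold a probe had at least 10 probes. The mean of all autosomal probes stood at -1.36 in 90f and -1.23 in 90n, so a lower call against the array median was favoured before any test. Against that median 1574 of the 1705 windows departed in limma (92.3% called), 23 higher (1.35%) and 1551 lower (91%). Against the autosomal mean 1269 did (74.4% called), 543 higher (31.8%) and 726 lower (42.6%). Within classes of interval size and probe length 1066 did (62.5% called), 556 higher (32.6%) and 510 lower (29.9%). Window means correlated at r = 0.975 between the samples, and with the percentage of 60-base probes in the window at r = -0.698. The fit against the autosomal mean gave all windows 1 pooled SE in place of their own spread, and its calls rest on that pooling. A call says that a window's mean lay apart from the array's by more than these 2 samples spread, in probes of unequal brightness.

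The highest window lay on chromosome 17, where 11 probes from 39980411 to 39985463 averaged 2.12 in 90f and 1.97 in 90n, a fitted 2.04 ± 0.14 (SE; limma, adjusted p = 2.7e-06). Its probes ranged from 0.92 to 2.85 in 90f and from 0.59 to 2.88 in 90n, and it holds the brightest interval given above. The number of genomic copies of this sequence was not checked, so its level is a signal and not a methylation level. The window on chromosome 14 from 109 to 110 Mb averaged 1.56 and 1.08 over 12 probes of 1 interval. Those on chromosome 15 from 68 to 69 Mb and on chromosome 7 from 99 to 100 Mb averaged 1.13 and 1.24, and 1.08 and 1.02. Every probe of these 4 windows was well above background in both samples. Within classes of interval size and probe length they lay above the mean of their classes by 2.39, 1.18, 1.87 and 1.39.

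The lowest window lay on chromosome 5 from 57 to 58 Mb, where 10 probes, all of 60 bases, averaged -10.18 in 90f and -10.54 in 90n and 1 was well above background in each sample. Windows on chromosome 4 from 79 to 80 Mb, chromosome 14 from 90 to 91 Mb and chromosome 16 from 47 to 48 Mb averaged -9.68 and -9.59, -9.48 and -9.57, and -9.18 and -9.28. At most 3 of their 11 probes were above background in a sample, so these averages are bounds set by the background and the 4 windows have no order. Within classes of interval size and probe length they lay at -6.56, -6.53, -3.49 and -6.12.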

How the data were processed

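The wild-type Cy3 channel of 2 two-colour Agilent arrays was used. The spot intensity that the authors deposited is the processed signal of Agilent Feature Extraction, background subtracted and scaled by 1 linear dye factor per array, per the file headers, which name mm9 and version 10.5.1.1. The submitters' processing notes give 8.5.1.1, and this difference was not resolved. The authors' deposited tables of intervals give each interval's ratio between the genotypes, and only the interval positions were used, to check the joining. Of 378 such autosomal intervals with probes, 304 fell in 1 joined interval (146 of these with further probes outside) and 74 in several.

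Signals were taken as log2 and centred on each array's autosomal median, with no loess or quantile step. Outlier spots were kept. Chromosome and window means were fitted with 1 intercept in limma 3.58.1 (R 4.3.3), Benjamini-Hochberg adjusted at 0.05. The error thus comes from the spread between 2 samples, moderated over windows. For chromosomes it was replaced entirely by 1 value pooled over all 19. For windows set against the autosomal mean it was likewise replaced by 1 value pooled over all windows. In a simulation of 1705 windows, 99% of 100 windows raised by 1, 100% of 100 lowered by 2 and 0.465% of the unshifted were called. The unshifted windows were set at 0, unlike most real ones, so 0.465% is not the share of false calls in these data. Regions named were the 3 highest and 3 lowest chromosomes, 4 highest and 4 lowest windows, and 5 brightest, 5 dimmest and 5 most different intervals of at least 3 probes. These members, classes and rules were chosen with earlier results of these data known. Signal was to be set against transcripts where a file column names a probe's gene. None does, so this was not run. The number of arrays limits the precision.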

Additional observations from a re-analysis of the deposited data

How the results depend on the processing

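The array median lay 6.42 log2 units above the negative controls without background subtraction and 6.06 with normexp, against 10.86, and from 10.69 to 11.02 with 1 sample left out. The share of probes well above background ran from 91.3% to 93.3% with 1 sample left out. Restricted to probes well above background in both samples, the agreement was 0.942, the density contrast 0.47, the gap between intervals of 4 or more probes and single probes 3.06 (7.93 over all probes) and the variance between intervals 70.0%. For the agreement, a move of over 0.02 was counted. The density contrast was 0.84 with 5 kb and 0.95 with 500 kb on either side, and 0.33 in 4-probe intervals, an alternative chosen after seeing the data. It ran from 1.13 to 1.36 with 1 sample left out. The gap to single probes was 6.33 without background subtraction, 6.08 with normexp, 2.97 with a joining distance of 250 bp and 9.75 with 1000 bp, and from 7.40 to 8.47 with 1 sample left out. The variance between intervals was 82.8% at 250 bp and 71.2% at 1000 bp, and from 75.9% to 78.0% with 1 sample left out. Window calls numbered 643 with medians in place of means (162 higher, 481 lower) and 1028 of 1064 with 2 Mb windows. With each probe set against its class they numbered 1066 (556 higher, 510 lower). The balance turned to higher there, but class means and the array median are different centres, and the skew of the signal favoured lower calls against the median. With chromosome medians, 15 of 19 autosomes were called (6 higher, 9 lower). The centring on the mean and the classes were also chosen after seeing the data. The cause of these moves was not tested, beyond the fewer windows or probes in some.

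No test was possible with 1 sample left out, since 1 array leaves no spread and no agreement. No paired analysis was possible because the 2 arrays hold 1 group here and the shared numbers link them only to expression arrays, with which they were not compared.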
